A study of Homo sapiens with 24 samples.

Results

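The integrated stress response and the unfolded protein response were followed through 10 genes: ATF4, ATF5, DDIT3, ASNS, TRIB3, CHAC1, PPP1R15A, CEBPG, XBP1 and HSPA5. They were taken by symbol from a list of known members of these responses, 10 of the 58676 gene rows read, and every value below is their mRNA level or its loss with time. HepG2 cells, an established human liver cancer line, were transfected transiently with a negative control siRNA (siControl) or with siRNA against 1 of 3 related RNA-binding proteins, IGF2BP1, IGF2BP2 or IGF2BP3. All cells were re-seeded after transfection, each plate into 3, and 48 h later actinomycin D, which blocks transcription, was given at 5 µg per ml. Cells were collected 0, 3 or 6 h later, and the 0 h groups had no time in the drug. The 4 conditions at 3 time points made 12 groups of 2 libraries, 24 in all. The study calls the replicates independent, but the labels do not tie them to separate cultures, so p-values measure only the spread between these libraries, which may be technical.

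Both responses slow protein synthesis and switch on a repair programme. In the integrated stress response, kinases phosphorylate the initiation factor eIF2, most translation falls, and the ATF4 mRNA is translated better through its upstream open reading frames. ATF4, with partners such as CEBPG, then drives genes for amino acid supply (ASNS), for feedback (TRIB3, PPP1R15A) and for cell death (DDIT3, CHAC1). In the unfolded protein response, the sensor IRE1 splices XBP1 mRNA, and XBP1 and ATF6 raise endoplasmic reticulum (ER) chaperones such as HSPA5, also called BiP. Liver cells secrete large amounts of protein and depend on these chaperones. Splicing of XBP1 and phosphorylation of eIF2 cannot be read from gene counts.

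The libraries held 31843248 to 74252042 reads in genes and 50889 to 119088 reads of ERCC spike-in, synthetic RNA added in proportion to total RNA. The targeted mRNA was lowered in each knockdown at each time, to between 15.9% and 35.5% of siControl, so each knockdown was partial. All 9 liver markers listed (ALB, AFP and others) passed a mean CPM of 1 (CPM counts the reads of a gene relative to all gene reads of its library), and of the 9 markers of leukocytes, fibroblasts and endothelium only CD14 and PDGFRB did. Mitochondrial transcripts made up 5.46 to 5.75% of gene reads at 0 h and 2.78 to 2.99% at 6 h. Levels within a time point are given in CPM after TMM scaling, which sets the bulk of genes equal between libraries. Loss over time is given on the ERCC scale, where a value is relative to total RNA. In such bulk RNA, fewer cells with a transcript and less transcript per cell cannot be told apart.

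Of the 10 genes, 8 had enough reads to be tested and 2 did not. CHAC1, a glutathione-degrading enzyme, had 0 to 2 reads in each library and 7 reads in all 24. Its highest level in any library was 0.0245 CPM, and in the libraries with a count of 0 the 3 reads that such a count allows are at most 0.0942 CPM. No difference between conditions was detectable at this depth. ASNS, asparagine synthetase, had 12 to 54 reads per library. Its main mRNA (ENST00000394308.8) shares 2374 of its 2385 bases, 99.5%, with exons of a long non-coding RNA on the same strand, ENSG00000284707, which itself had 317 reads over the 24 libraries. Reads set aside as ambiguous between genes were 4.67 to 5.63% of each library, and how the counting treated shared exons is not given in the sources used here, so no level of ASNS is read from these counts. DDIT3 shares 24.3% of its main mRNA with MARS1 on the opposite strand and 11.6% with a gene on its own strand, and ATF5 shares 9.77% with NUP62 and IL4I1 on the opposite strand. The library kit keeps strand, but the strand setting of the counting is not given in the sources used here. Processed copies of ATF4, XBP1 and HSPA5 drew few reads, at most 1701 (HSPA5P1) over the 24 libraries, against 1741701 for HSPA5 itself.

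Per length, in TPM (reads divided by transcript length and scaled to a fixed total) over the 8 libraries at 0 h, XBP1 stood at 801 ± 50.9 (SD, n = 8) and HSPA5 at 788 ± 41.9. The transcription factor mRNA ATF4 followed at 608 ± 10.4. TRIB3 was at 109 ± 6.28 TPM and CEBPG at 55.5 ± 1.76. DDIT3 (31.2 ± 3.18), PPP1R15A (28.4 ± 4.26) and ATF5 (24.8 ± 1.88) were the lowest of the 8. XBP1 and HSPA5 overlapped in range over the libraries, as did DDIT3 with PPP1R15A and PPP1R15A with ATF5, whereas the other neighbours in this order did not.

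The 8 mRNAs fell into a fast and a slow set after transcription was stopped. In siControl the half-lifetime was 0.875 h for DDIT3, 1.27 h for PPP1R15A, 1.39 h for XBP1, 1.43 h for TRIB3 and 1.78 h for CEBPG. ATF4 had 6.25 h, ATF5 8.90 h and HSPA5 16.5 h, against a median of 6.22 h over the 11039 genes that could be measured. These were the genes with a net loss among the 12179 with a mean CPM of at least 1. Genes without net loss were left out, which lowers the median and raises the rank of HSPA5. A half-lifetime is ln 2 divided by the mean of the decay constants from 0 to 3 h and from 0 to 6 h, and values far beyond 6 h are extrapolated. DDIT3 was shorter lived than all but 0.453% of the measured genes, and HSPA5 was longer lived than 79.9% of them.

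The 3′ untranslated regions (UTRs) of the fast and slow members are shown because the pentamer ATTTA is the core of the AU-rich elements known to mark short-lived mRNAs. The sequences are from the main transcript of each gene in GENCODE v44 on hg38, read 5′ to 3′ on the transcript strand, with each ATTTA in capitals. The 3 fast members with paired sites carry them within 30 bases (in DDIT3 and XBP1 the pair shares a base), at chr12:57516620-57516644 (minus strand) for DDIT3, chr19:48875987-48876016 (plus) for PPP1R15A and chr22:28794584-28794608 (minus) for XBP1. For comparison, the first single site of CEBPG lies at chr19:33380338-33380358 (plus) and that of HSPA5 at chr9:125236313-125236333 (minus). CEBPG, also a fast member, held only single sites, and TRIB3, another fast member, held none. How many of all genes carry such pairs was not counted, so the pairs cannot be called particular to the fast set.
DDIT3: gattgtacATTTATTTAttactgtc
PPP1R15A: gcctataATTTAttaactATTTAttttttc
XBP1: ctttctccATTTATTTAaaactacc
CEBPG: caaataacATTTAggaagcaa
HSPA5: aatgttctATTTAacaactgg

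Per kilobase of 3′ UTR, PPP1R15A held 23.5 ATTTA pentamers (2 in only 85 bases), DDIT3 9.26 (2 in 216 bases), XBP1 6.50 (4 in 615 bases) and CEBPG 3.01 (9 in 2994 bases). HSPA5 held 2.30 (4 in 1739 bases), and ATF5 and ATF4 held 0, in 843 and 81 bases. TRIB3 held 0 in 869 bases. The density did not follow the order of half-lifetimes throughout, since TRIB3 was short lived, HSPA5 was the longest lived, and DDIT3 was shorter lived than PPP1R15A. Over all tested genes with a 3′ UTR the median was 1.69 per kilobase, and 72.8% held at least 1 ATTTA. The longer form TTATTTATT, which contains ATTTA, was in DDIT3 and CHAC1 among the 10, and in 9.40% of all genes. The Pumilio motif TGTANATA (N is any base) was in DDIT3, ATF4 and HSPA5, and in 29.9% of all genes. These matches describe sequence and were not tested against decay.

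DDIT3 encodes CHOP, a transcription factor that promotes cell death under prolonged stress. Its siControl libraries held 623 and 853 reads at 0 h, 20 and 50 at 3 h, and 33 and 12 at 6 h. On the ERCC scale, 5.56% ± 2.64 (SD, n = 2) of the 0 h level was left at 3 h and 2.40% ± 1.52 at 6 h. No library at 3 h or 6 h, in any condition, held more than 7.42% of its 0 h mean, and the libraries at 3 h and 6 h overlapped only in siIGF2BP2.

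PPP1R15A encodes GADD34, which brings a phosphatase to eIF2 and ends the block on translation. The siControl libraries stood at 25.3 and 23.8 CPM at 0 h, 4.28 and 4.81 at 3 h, and 3.57 and 3.57 at 6 h. On the ERCC scale 13.5% ± 1.08 was left at 3 h and 7.94% ± 0.476 at 6 h. TRIB3, a pseudokinase induced by ATF4 that dampens ATF4 and AKT, went from 86.9 and 82.9 CPM to 29.5 and 27.5 and then to 9.02 and 6.53. Its ERCC-scaled level fell to 24.5% ± 1.31 and 5.04% ± 1.43 of 0 h.

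XBP1, the transcription factor activated by splicing, went from 595 and 601 CPM at 0 h to 189 and 184 at 3 h and 54.5 and 53.2 at 6 h in siControl. The ERCC-scaled remainder was 22.7% ± 0.502 at 3 h and 4.93% ± 0.379 at 6 h. CEBPG, a basic leucine zipper partner of ATF4, kept 28.2% ± 1.00 at 3 h and 11.8% ± 1.19 at 6 h. Of the 3 members with the highest levels per length, XBP1, HSPA5 and ATF4, only XBP1 was therefore in the fast set.

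ATF4, the master transcription factor of the integrated stress response, kept 66.9% ± 0.877 at 3 h and 59.0% ± 4.73 at 6 h in siControl. Its CPM after TMM scaling barely moved, from 364 and 368 to 338 and 333 and then to 399.7 and 388. ATF5, a related factor controlled in the same way at translation, kept 80.6% ± 2.50 and 60.4% ± 7.48. HSPA5, the main Hsp70 chaperone of the ER, kept 88.7% ± 1.62 and 76.9% ± 4.04. For HSPA5 the range of the half-lifetime over the 8 ways of taking 1 library per time point was 10.2 to 50.7 h in siControl and 14.6 to 291 h in siIGF2BP3, so its length is poorly fixed by a 6 h course.

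**Figure D1:**
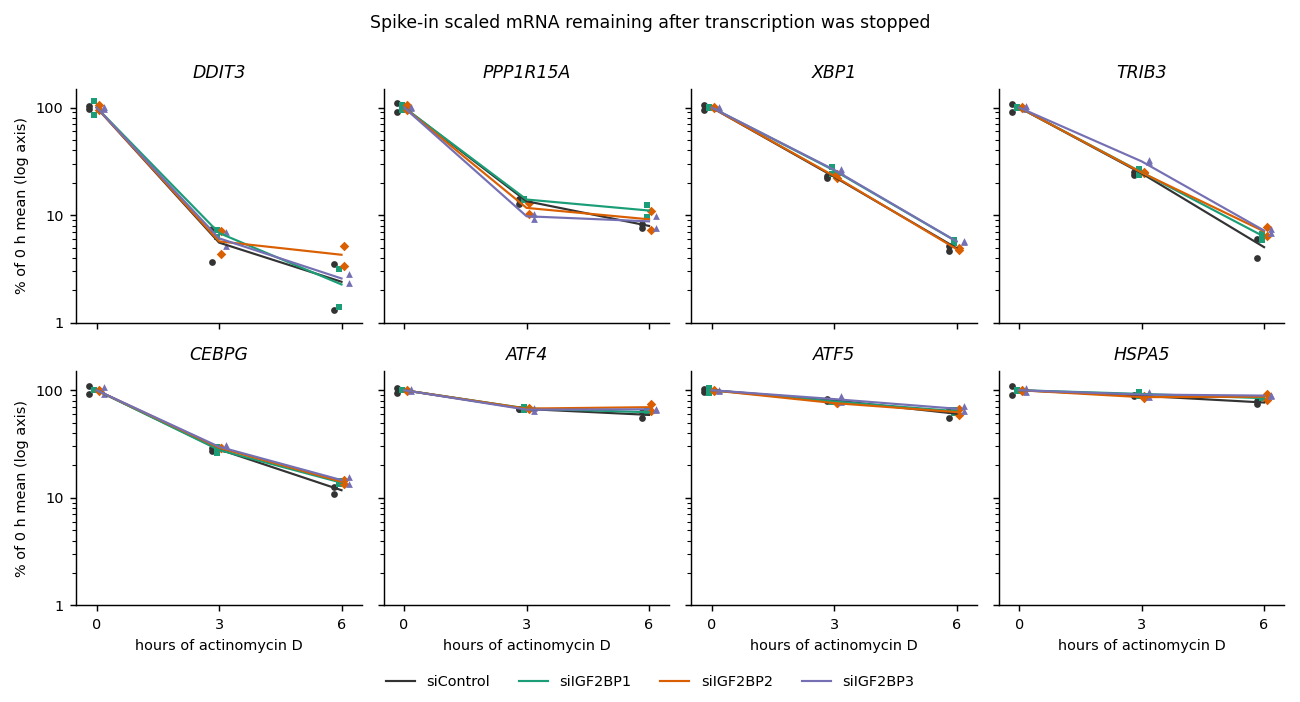
ERCC-scaled mRNA as a percent of the 0 h group mean (log axis) against hours of actinomycin D for the 8 tested genes; lines join group means and each point is 1 library, drawn slightly apart by condition. At 6 h the group means of DDIT3, PPP1R15A, XBP1, TRIB3 and CEBPG lie between 2.27 and 14.6%, and those of ATF4, ATF5 and HSPA5 between 59.0 and 89.1%.

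A line fitted through log2 level and time in each condition (edgeR quasi-likelihood test, Benjamini-Hochberg adjustment over 13136 genes) gave a fall for 8 of 8 genes in siControl, where 80.3% of all genes tested also fell. The count was 8 of 8 in siIGF2BP1 (69.1% of all genes), 8 of 8 in siIGF2BP2 (71.3%) and 7 of 8 in siIGF2BP3 (67.2%), where HSPA5 missed the threshold (adjusted p = 0.0793). The HSPA5 call was also lost in siIGF2BP1 without its 0 h replicate 1 (slope -0.23), and in siIGF2BP2 without either 0 h library or 6 h replicate 1 (-0.18 to -0.15). Since most genes fell, the size carries more than the count. The median slope was -3.41 (log2 per 6 h) over the 8 genes in siControl and -0.88 over all genes, and this all-gene median is what separates the ERCC scale from the TMM scale. Relative to it, the slope of DDIT3 stood at -4.85, of XBP1 at -3.46, of TRIB3 at -3.41, of PPP1R15A at -2.83 and of CEBPG at -2.21, whereas HSPA5 stood 0.51 above it, ATF5 0.16 and ATF4 0.12. HSPA5, ATF4 and ATF5 therefore fell in siControl on the ERCC scale, while their TMM-scaled slopes were positive (0.49, 0.11 and 0.14). Of these TMM-scaled slopes only that of HSPA5 passed (adjusted p = 1.44e-09, edgeR). Those of ATF4 (adjusted p = 0.350, edgeR) and ATF5 (0.142) did not, so no rise was detected for them.

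**Figure D2:**
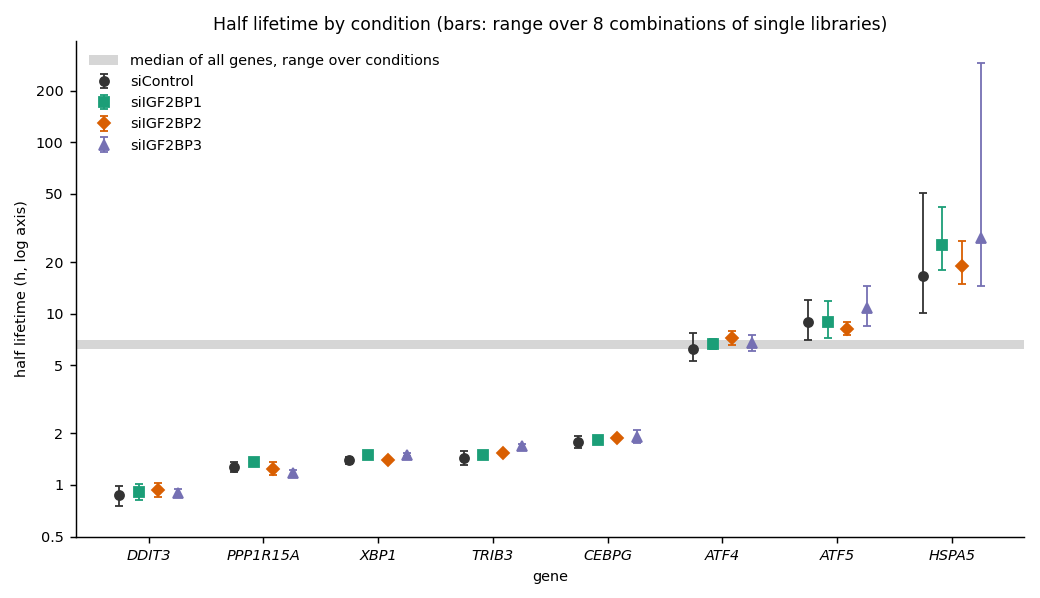
Half-lifetime in hours (log axis) of the 8 tested genes in each condition, with bars for the range over the 8 combinations of 1 library per time point; the grey band spans the all-gene medians of the 4 conditions. DDIT3 to CEBPG lie between 0.875 and 1.91 h, ATF4 lies in or near the band, and HSPA5 lies above it.

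The order of half-lifetimes was the same in the 4 conditions, though some neighbours did not differ beyond their ranges. The ranges of DDIT3 and PPP1R15A, of TRIB3 and CEBPG, and of CEBPG and ATF4 overlapped in none of them. PPP1R15A and XBP1 overlapped in siControl, XBP1 and TRIB3 in siControl and siIGF2BP1, ATF4 and ATF5 in siControl and siIGF2BP2, and ATF5 and HSPA5 in siControl. Over the conditions the half-lifetime of DDIT3 was 0.875 to 0.937 h, of PPP1R15A 1.17 to 1.35 h, of XBP1 1.39 to 1.505 h, of TRIB3 1.43 to 1.69 h and of CEBPG 1.78 to 1.91 h. ATF4 was at 6.25 to 7.24 h, ATF5 at 8.17 to 10.7 h and HSPA5 at 16.5 to 27.8 h. This order holds for a measure in which the first 3 h enter both decay constants. PPP1R15A came before XBP1 and TRIB3 by it. At 6 h in siControl, however, 7.94% of PPP1R15A was left, against 4.93% of XBP1 and 5.04% of TRIB3.

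Whether a knockdown changes the rate of loss was tested as the difference between its slope and that of siControl. In siIGF2BP1, 0 of the 8 genes passed (0.0152% of all genes did) and 0 had an unadjusted p under 0.05. In siIGF2BP2, 0 of 8 passed (0% of all genes) and 1 had an unadjusted p under 0.05. In siIGF2BP3 the counts were 0 of 8 (0.0228% of all genes) and 1. DESeq2 also called 0 of 8 in each knockdown. The median slope difference of the 8 genes was 0.17, 0.21 and 0.19 (log2 per 6 h), beside 0.19, 0.17 and 0.22 over all genes, and the 8 values spread widely (-0.20 to 0.44 in siIGF2BP1, -0.03 to 0.80 in siIGF2BP2, -0.21 to 0.53 in siIGF2BP3). The 3 comparisons share the siControl libraries.

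TRIB3 had the unadjusted p under 0.05 in both cases. Its half-lifetime was 1.43 h (range 1.31 to 1.58) in siControl, 1.53 h (1.49 to 1.57) in siIGF2BP2 and 1.69 h (1.63 to 1.75) in siIGF2BP3, where the range lay above that of siControl. The slope difference was 0.47 ± 0.20 (SE) in siIGF2BP2 (adjusted p = 0.643) and 0.53 ± 0.21 in siIGF2BP3 (adjusted p = 0.287, edgeR), of which the all-gene medians above make up a part. For the others the data set only wide limits. The interval of 2 standard errors for XBP1 in siIGF2BP3 was -0.03 to 0.46, for ATF4 -0.23 to 0.57, and for DDIT3 -2.60 to 2.19. The curves of DDIT3 and PPP1R15A bend, and their misfit to a line widens these intervals.

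The bend itself was tested as the log2 change from 3 to 6 h minus that from 0 to 3 h, averaged over the 4 conditions. A positive value means that loss slowed. It passed for 5 of the 8 genes, beside 29.9% of all genes. DDIT3 had 2.92 ± 0.26 (SE; adjusted p = 1.93e-27, edgeR) and PPP1R15A 2.65 ± 0.14 (adjusted p = 1.86e-79). CEBPG (0.71 ± 0.09) and ATF4 (0.52 ± 0.07) also slowed. XBP1 had -0.19 ± 0.07 (adjusted p = 0.0339), a slightly faster late loss, and this call was lost when any 1 of 10 of the 24 libraries was left out (values of -0.20 to -0.13). TRIB3 (-0.13 ± 0.09), ATF5 (0.01 ± 0.10) and HSPA5 (0.07 ± 0.07) did not pass. TRIB3 passed with TMM scaling (-0.26) and with library-size scaling (-0.22), and HSPA5 passed with TMM scaling in the other direction (-0.063).

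The slowing was plain in the levels. In siControl DDIT3 changed by -4.17 (log2) in the first 3 h and by -1.21 in the next 3 h, and PPP1R15A by -2.89 and -0.76. In siIGF2BP3 PPP1R15A changed by -3.36 and then by -0.16. TRIB3 lost -2.03 and -2.28 and XBP1 -2.14 and -2.20 in siControl, which is close to a straight line on the log scale. The late DDIT3 values rest on 8 to 36 reads per library. A half-lifetime over the whole course therefore understates the early speed of DDIT3 and PPP1R15A, which from 0 to 3 h had 0.720 h and 1.04 h in siControl.

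**Figure D3:**
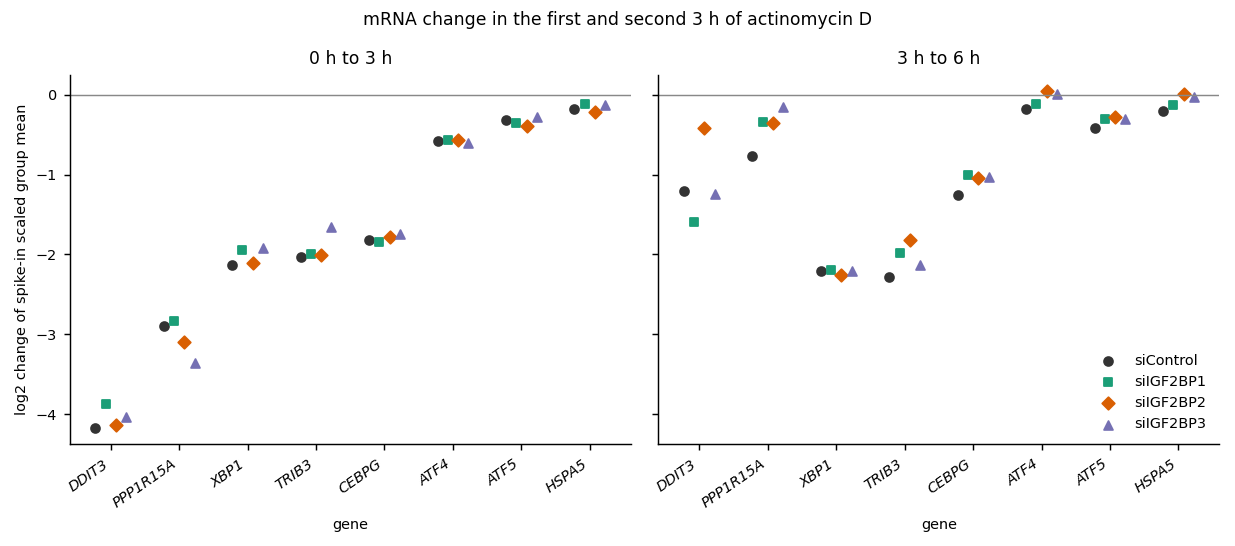
Log2 change of the ERCC-scaled group mean from 0 to 3 h (left) and from 3 to 6 h (right) for the 8 tested genes, 1 point per condition. DDIT3 and PPP1R15A drop by 2.84 to 4.17 early and by 0.16 to 1.59 late, whereas XBP1 and TRIB3 drop by similar amounts in both periods.

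Before actinomycin D the 8 estimates were of mixed sign in each knockdown, with 5, 2 and 3 of them above 0 in siIGF2BP1, siIGF2BP2 and siIGF2BP3. A common direction of the 8 genes was not tested. In siIGF2BP1, 1 of 8 genes passed the test, beside 15.9% of all genes. XBP1 was at 595 and 601 CPM in siControl and at 537 and 553 in siIGF2BP1, a log2 change of -0.13 ± 0.04 (SE; adjusted p = 0.0138, edgeR). The libraries did not overlap, yet the call was lost without siControl replicate 1 or 2 or siIGF2BP1 replicate 1 (-0.14 to -0.11), and on the ERCC scale (-0.17, adjusted p = 0.316). PPP1R15A stood at 21.5 and 19.8 CPM against 25.3 and 23.8 (-0.25 ± 0.11, adjusted p = 0.136) and ATF5 at 19.4 and 17.8 against 15.8 and 16.6 (0.20 ± 0.08, adjusted p = 0.0853).

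In siIGF2BP2, 2 of 8 genes passed, beside 12.1% of all genes, and both fell. HSPA5 was at 1141 CPM in both libraries against 1312 and 1251 in siControl, a log2 change of -0.17 ± 0.03 (SE; adjusted p = 9.51e-05, edgeR). XBP1 was at 539 and 541 CPM, a change of -0.15 ± 0.04 (adjusted p = 0.00837), which no longer passed when any 1 of the 4 libraries was left out (-0.15 to -0.14). Neither passed with ERCC scaling (HSPA5 -0.09, XBP1 -0.07). In siIGF2BP3, 1 of 8 passed, beside 9.39% of all genes. HSPA5 was at 1164 and 1220.1 CPM (-0.10 ± 0.03, adjusted p = 0.0201), and the call was lost without siControl replicate 1 or siIGF2BP3 replicate 1 (-0.07 for both) and on the ERCC scale (-0.02). ATF4, ATF5, DDIT3, TRIB3, PPP1R15A and CEBPG passed in none of the 3 comparisons, with log2 changes between -0.31 (PPP1R15A in siIGF2BP3) and 0.20 (ATF5 in siIGF2BP1).

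**Figure D4:**
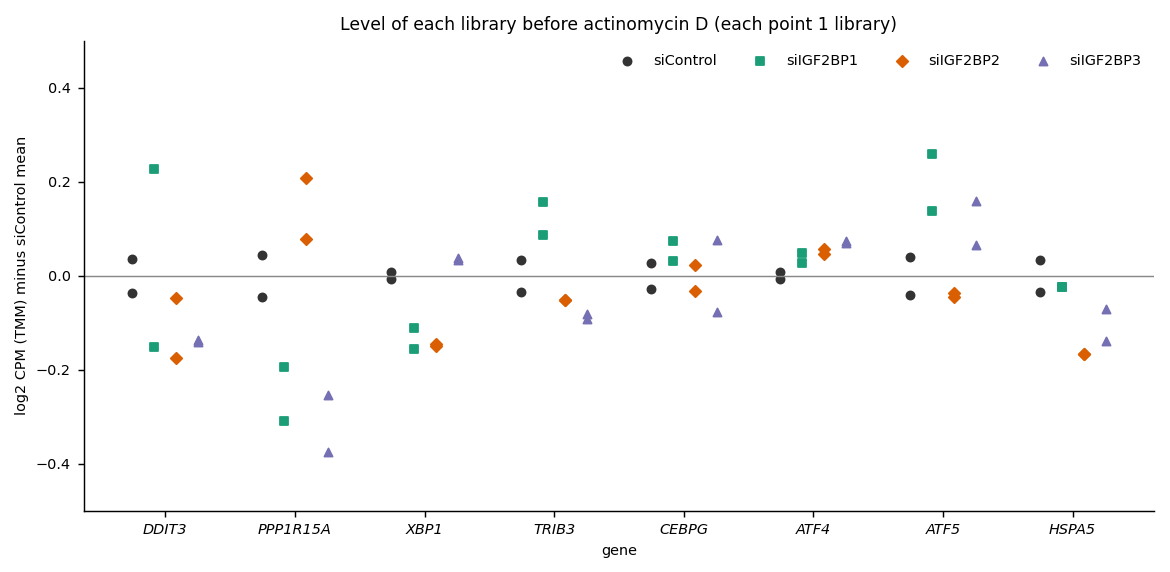
Log2 CPM after TMM scaling minus the siControl mean at 0 h for the 8 tested genes, each point 1 library. XBP1 sits below siControl in siIGF2BP1 and siIGF2BP2, HSPA5 in siIGF2BP2 and siIGF2BP3, and PPP1R15A lies lower in siIGF2BP1 and siIGF2BP3 and higher in siIGF2BP2.

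The knockdowns were also compared with each other, which does not involve siControl. Between siIGF2BP1 and siIGF2BP2, 4 of 8 genes differed at 0 h, beside 18.7% of all genes. PPP1R15A was lower in siIGF2BP1 (21.5 and 19.8 CPM) than in siIGF2BP2 (25.9 and 28.4), by -0.39 ± 0.11 (SE; adjusted p = 0.00925, edgeR). ATF5 (0.25 ± 0.08), TRIB3 (0.17 ± 0.06) and HSPA5 (0.14 ± 0.03) were higher in siIGF2BP1. Between siIGF2BP1 and siIGF2BP3, 2 of 8 differed, beside 14.3% of all genes, TRIB3 by 0.21 ± 0.06 and XBP1 by -0.17 ± 0.04. Between siIGF2BP2 and siIGF2BP3, 2 of 8 differed, beside 9.19% of all genes. PPP1R15A was at 25.9 and 28.4 CPM in siIGF2BP2 and at 20.6 and 18.9 in siIGF2BP3, a difference of 0.46 ± 0.11 (adjusted p = 0.00469), and XBP1 differed by -0.18 ± 0.04. PPP1R15A also passed on the ERCC scale in both of its comparisons, as did XBP1 against siIGF2BP1 (-0.28), whereas ATF5, TRIB3, HSPA5 and the other XBP1 difference did not. The PPP1R15A call was lost without siIGF2BP1 replicate 2 (-0.34) or siIGF2BP2 replicate 2 (-0.33) in the first, and without siIGF2BP2 replicate 2 (0.39) or siIGF2BP3 replicate 2 (0.40) in the second. Against siIGF2BP2, TRIB3 was lost without any 1 of the 4 libraries (0.14 to 0.21), and ATF5 without siIGF2BP1 replicate 1 (0.18) or either siIGF2BP2 library (0.24 and 0.25). Against siIGF2BP3, TRIB3 was lost without siIGF2BP1 replicate 2 (0.17) or either siIGF2BP3 library (0.20 and 0.21), and XBP1 without siIGF2BP1 replicate 1 (-0.15).

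Levels after actinomycin D were compared in the same way, a comparison added after other values had been seen. At 3 h, 0 of 8 genes passed in siIGF2BP1 (20.9% of all genes), 1 of 8 in siIGF2BP2 (17%) and 4 of 8 in siIGF2BP3 (16%). No edgeR p was under 0.05 before adjustment in siIGF2BP1, and DESeq2 also called 0. PPP1R15A showed the largest change among the 8 in siIGF2BP3. It was at 4.28 and 4.81 CPM in siControl and at 2.44 and 2.60 in siIGF2BP3 at 3 h, a log2 change of -0.87 ± 0.16 (SE; adjusted p = 0.000158, edgeR), and it passed on the ERCC scale too (-0.72). In the same comparison XBP1 was higher (211 and 211 CPM against 189 and 184, 0.18 ± 0.04), as was TRIB3 (33.0 and 33.0 against 29.5 and 27.5, 0.21 ± 0.07), and both passed on the ERCC scale. The TRIB3 call was lost without siControl replicate 2 (0.16) or either siIGF2BP3 library (0.21), and with a replicate block within each condition (0.14, adjusted p = 0.243, edgeR). HSPA5 was lower by -0.14 ± 0.03 in siIGF2BP3 (lost without siIGF2BP3 replicate 1, -0.08) and by -0.19 ± 0.03 in siIGF2BP2, and on the ERCC scale neither passed (0.016 and -0.13).

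At 6 h, 1 of 8 genes passed in siIGF2BP1 (24.3% of all genes), 3 of 8 in siIGF2BP2 (18.7%) and 1 of 8 in siIGF2BP3 (18.5%). XBP1 was at 43.5 and 40.0 CPM in siIGF2BP2 against 54.5 and 53.2 in siControl (-0.37 ± 0.05, adjusted p = 2.59e-07, edgeR), and ATF4 was higher there (419 and 422 CPM against 399.7 and 388, 0.09 ± 0.03), a call lost without siControl replicate 2 (0.07) or either siIGF2BP2 library. HSPA5 was lower in the 3 knockdowns after TMM scaling (-0.09, -0.19 and -0.12), a call lost in siIGF2BP1 without any 1 of the 4 libraries (-0.10 to -0.08) and in siIGF2BP3 without siIGF2BP3 replicate 1 (-0.08). ERCC scaling turned the direction of HSPA5 (0.075, 0.089 and 0.19, of which only the last passed) and ended the XBP1 call (-0.10). On that scale 6493 and 6996 of all 13136 genes were called in siIGF2BP2 and siIGF2BP3, 6336 and 6905 of them higher. Of the 8 genes, 1, 5 and 6 passed in siIGF2BP1, siIGF2BP2 and siIGF2BP3, each of them higher. TRIB3 was among these in each knockdown, by 0.41, 0.51 and 0.50, and after TMM scaling it did not pass with all libraries (0.25, 0.24 and 0.20) but passed without siControl replicate 1 (0.51, 0.50 and 0.46). DESeq2 also called it in siIGF2BP1 and siIGF2BP2 (0.25 in both), and library-size scaling in siIGF2BP2 (0.27). At 6 h the ERCC scale placed the median of all genes 0.17, 0.27 and 0.31 above siControl, so directions at that time are relative to the bulk of genes. Whether the knockdown effect on PPP1R15A or XBP1 changed between 0, 3 and 6 h was tested only through the slopes.

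**Figure D5:**
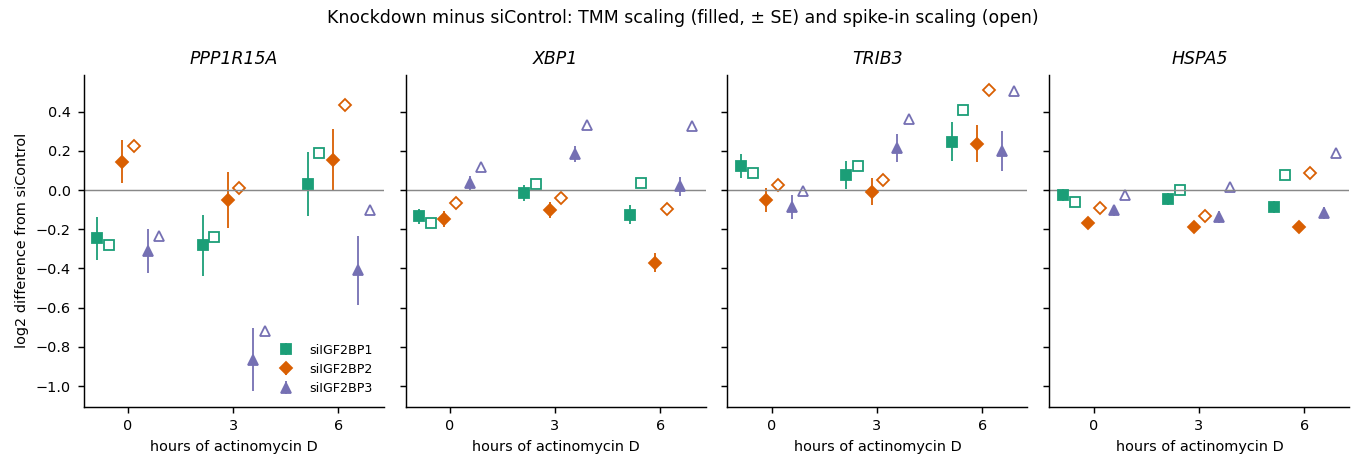
Log2 difference from siControl at 0, 3 and 6 h for 4 genes in each knockdown; filled points are TMM-scaled with ± 1 SE and open points ERCC-scaled, without error bars. PPP1R15A is lowest in siIGF2BP3 at 3 h on both scales, whereas HSPA5 at 6 h is below 0 when TMM-scaled and above 0 when ERCC-scaled.

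A wider list of 80 further genes of both responses, in 8 roles, gave 78 that could be tested. At 0 h, 18 rose and 10 fell in siIGF2BP1, 7 rose and 15 fell in siIGF2BP2, and 3 rose and 10 fell in siIGF2BP3, beside 15.9%, 12.1% and 9.39% of all genes called in either direction, with medians of 0.00, -0.01 and -0.05 (log2) beside 0.01, 0.02 and 0.00 over all genes. With ERCC scaling these counts were 4 and 3, 5 and 1, and 2 and 1. Over all 13136 genes they were then 253 and 396, 563 and 169, and 388 and 83.

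Of the ER chaperones and folding enzymes, the group to which HSPA5 belongs, 13 others were tested. In siIGF2BP2, 0 of the 13 rose and 9 fell at 0 h, beside 12.1% of all genes called, and all 13 estimates were below 0, with a median of -0.10 (log2). On the ERCC scale only 1 of the 13 fell, 10 estimates were below 0 and the median was -0.02, beside an all-gene median of 0.10. DNAJB9, a co-chaperone induced by XBP1, fell the most, from 22.4 and 21.1 CPM to 14.2 and 15.3 (-0.56 ± 0.10, adjusted p = 0.000172, edgeR). The partner chaperone HSP90B1 fell by 0.17 ± 0.03 on the log2 scale and MANF by 0.24 ± 0.06. In siIGF2BP3, 0 of 13 rose and 5 fell, beside 9.39% of all genes called, and 11 estimates were below 0 (CANX was at 0.021 and PDIA4 at 0.013), with a median of -0.10. Those that fell were CALR, CRELD2, DNAJB11, HYOU1 and PDIA6, by 0.10 to 0.17, and none passed on the ERCC scale, where the median was -0.02. In siIGF2BP1, 2 of 13 rose (CANX by 0.14 and PDIA4 by 0.12) and 0 fell, beside 15.9% of all genes called, with a median of 0.00. Later in siIGF2BP1, 2 rose and 1 fell at 3 h, and 2 rose and 2 fell at 6 h, beside 20.9% and 24.3% of all genes called. HSP90B1, MANF and these single chaperones were chosen after their values were seen. The comparisons share the siControl libraries. At 3 h the counts that fell were 9 in siIGF2BP2 and 11 in siIGF2BP3, beside 17% and 16% of all genes called, but 0 and 1 on the ERCC scale. In siIGF2BP2 at 3 h that scale called 898 of all 13136 genes, and only 274 of them fell. The total for siIGF2BP3 at 3 h on that scale is not given here. At 6 h the counts that fell were 8 in siIGF2BP2 and 9 in siIGF2BP3, beside 18.7% and 18.5% of all genes called. On the ERCC scale at 6 h, 2 and 5 of the 13 rose and 0 and 1 fell. Over all 13136 genes 6336 and 6905 rose on that scale, and 157 and 91 fell.

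Among the other roles, the largest changes at 0 h in siIGF2BP1 were DDIT4, an inhibitor of mTORC1 (40.5 and 45.1 CPM against 30.6 and 27.1, 0.57 ± 0.09), CREB3L3, a liver transcription factor of the ER membrane (0.49 ± 0.08), and EDEM1, which directs misfolded glycoproteins to degradation (0.35 ± 0.05). In siIGF2BP2, besides DNAJB9, these were CTH, which makes cysteine (-0.37 ± 0.11), and CREB3L2 (-0.31 ± 0.04). In siIGF2BP3 they were GDF15, a stress hormone (63.2 and 69.7 CPM against 92.8 and 84.4, -0.42 ± 0.06), EDEM1 (0.21 ± 0.05) and PSPH, of serine synthesis (0.19 ± 0.04). Each passed after Benjamini-Hochberg adjustment (edgeR).

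Half-lifetimes of the wider list in siControl varied widely within most roles, and roles were not tested against each other. Of the 78 genes, 68 had a measurable loss, with a median of 9.91 h, and 27 lay below the all-gene median. The 9 further targets of ATF4 and CHOP had a median of 1.56 h (0.651 to 30.7 h), and the 3 shortest were DDIT4 (0.651 h), SESN2 (1.04 h), which restrains mTORC1, and BBC3 (1.06 h), the pro-death protein PUMA. The 7 transcription factors with a value had a median of 3.50 h (1.10 to 51.0 h) and the 8 genes of ER-associated degradation and transport 6.11 h (2.89 to 12.1 h). The medians were 10.003 h for eIF2 and its partners (1.51 to 19.2 h), 11.6 h for the sensors (1.81 to 21.3 h) and 12.002 h for amino acid genes (1.36 to 1001 h). They were 14.2 h for tRNA synthetases (9.91 to 532 h) and 15.7 h for the 7 of 13 chaperones with a value (1.82 to 101 h). The longest were PHGDH and SHMT2, of serine and one-carbon metabolism, and the tRNA synthetase WARS1, whose computed values of 268 to 1001 h mean only that little or no loss was seen over 6 h.

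Whether the 8 genes varied together over the 8 libraries at 0 h was not tested. Their mean profile spanned only 0.08 on the log2 scale, less than that of 7 of the genes themselves. ATF4 (Pearson r = -0.76) and XBP1 (-0.27) correlated negatively with it. DDIT3 (0.88), HSPA5 (0.71), TRIB3 (0.64), ATF5 (0.33), CEBPG (0.13) and PPP1R15A (0.12) correlated positively. Each gene is part of the profile and a wide range weighs more (0.38 for DDIT3, 0.08 for ATF4), so these r are partly built in. The genes most like that profile among 9738 were MRPL46 (r = 0.95), HPS4 (0.95), ARMC8 (0.95), TCAIM (0.94) and GLYCTK (0.93). These are correlations over 8 libraries that share 4 conditions and a common scaling, and they are given as a description. The named genes are the highest of 9738, and how high r would reach by chance was not tested.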

How the data were processed

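HepG2 RNA from 4 siRNA conditions at 3 times in actinomycin D (2 libraries each) was analysed from read counts per gene. Per the labels and the study's methods, the authors mixed ERCC spike-in into total RNA before poly(A) selection. Stranded libraries were read from 1 end, and reads were trimmed (Trimmomatic 0.39), aligned to hg38 (HISAT2 2.1.0) and assigned to GENCODE genes by HTSeq. What the authors deposited are raw counts without normalization. Each library has 58721 rows of genes, 92 of ERCC and 5 of summaries. Summary rows (13.6 to 17.1% of a library) and 45 Y-linked duplicate rows were left out, and 58207 identifiers matched a symbol (469 did not). Depth was 31843248 to 74252042 gene reads per library. Counting intervals and limits cover counting error only, since the reads carry no molecular identifiers. Replicates differed by more than sampling noise in each group (chi-square per degree of freedom 3.17 to 7.83).

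The 13136 genes reaching 1 CPM in 2 or more libraries were tested with edgeR 4.0.16 in R 4.3.3 (quasi-likelihood test, two-sided, Benjamini-Hochberg over all of them, threshold 0.05). Levels used 12 group means with TMM scaling, and loss used a line per condition with ERCC totals as library sizes. TPM used GENCODE v44 exon lengths, a later release than the authors counted on. Alternatives were DESeq2 1.42.0, other scalings and filters, a replicate block, only the groups compared, and leaving out each library. The levels at 3 h and 6 h were compared after the other values had been seen. The scripts were tested on simulated data. The genes and lists were chosen with earlier results of these data known. Named are the 10 genes, the siRNA targets, the 3 list genes with the largest 0 h change per knockdown and the 3 shortest and longest lived in siControl, and the 5 genes with the most similar 0 h profile. Chaperones named beside these were chosen after their values were seen. Libraries of other knockdowns were not analysed here.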

Additional observations from a re-analysis of the deposited data

Results flagged for a closer look

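In 5 of the 8 genes, beside 29.9% of all genes, the loss differed between the first 3 h and the second 3 h of actinomycin D. The test was of that difference over the 4 conditions (edgeR, Benjamini-Hochberg adjustment over all genes tested). The late minus early change on the log2 scale was 2.92 for DDIT3, 2.65 for PPP1R15A, 0.71 for CEBPG, 0.52 for ATF4 and -0.19 for XBP1. The XBP1 call was lost when any 1 of 10 libraries was left out. The DDIT3 value rests on 8 to 36 reads per library at 6 h.

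At 0 h the level of 5 genes differed between knockdowns by the same kind of test of the difference itself. Between siIGF2BP1 and siIGF2BP2 (18.7% of all genes called) the log2 difference was -0.39 for PPP1R15A, 0.25 for ATF5, 0.17 for TRIB3 and 0.14 for HSPA5. Between siIGF2BP1 and siIGF2BP3 (14.3%) it was 0.21 for TRIB3 and -0.17 for XBP1. Between siIGF2BP2 and siIGF2BP3 (9.19%) it was 0.46 for PPP1R15A and -0.18 for XBP1. On the ERCC scale 1 gene passed in each comparison, PPP1R15A in its 2 and XBP1 between siIGF2BP1 and siIGF2BP3. Leaving out single libraries ended the calls of PPP1R15A, ATF5 and TRIB3, and of XBP1 between siIGF2BP1 and siIGF2BP3. These comparisons share libraries, since each knockdown enters 2 of them.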

How the results depend on the processing

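For the 8 genes, the falls of DDIT3, PPP1R15A, XBP1, TRIB3 and CEBPG kept their direction and stayed past the threshold in each condition under each alternative run, and the 0 slope differences stayed 0. The scale mattered most for the slow mRNAs. With TMM scaling the decay slopes (log2 per 6 h) turned to 0.11, 0.15 and 0.055 for ATF4 in siControl, siIGF2BP2 and siIGF2BP3, to 0.14, 0.025 and 0.071 for ATF5 in siControl, siIGF2BP1 and siIGF2BP3, and to 0.49, 0.43, 0.47 and 0.48 for HSPA5 in the 4 conditions; with library-size scaling those of HSPA5 were 0.17, 0.13, 0.20 and 0.19. Of these slopes only those of HSPA5 passed. Library-size scaling also ended the calls of ATF4 in siControl (-0.21), siIGF2BP2 (-0.13) and siIGF2BP3 (-0.24), and of ATF5 in siControl (-0.18). The late minus early value of HSPA5 turned to -0.063 with TMM scaling, which passed. On the ERCC scale HSPA5 minus siControl turned to 0.016 at 3 h in siIGF2BP3 and to 0.075, 0.089 and 0.19 at 6 h.

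With ERCC scaling the genes called at 0 h were 0, 0 and 0 against siControl (from 1, 2 and 1) and 1, 1 and 1 between knockdowns (from 4, 2 and 2). With only the 2 groups compared they were 3 in siIGF2BP1 and 2 in siIGF2BP3. Leaving out 1 library gave 0 to 1, 1 to 1 and 0 to 1 against siControl, and 1 to 2 in each comparison between knockdowns. The median half-lifetime of the 8 genes, 1.61, 1.67, 1.71 and 1.80 h in siControl, siIGF2BP1, siIGF2BP2 and siIGF2BP3, became 1.79, 1.82, 1.83 and 1.97 h with TMM scaling, 1.79, 1.99, 1.93 and 1.93 h with a least-squares slope, and 1.59 and 1.59 h in siIGF2BP1 and siIGF2BP2 from 0 to 3 h alone. The cause of these shifts was not tested.

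Each transfected plate was re-seeded into 3, and whether same-numbered libraries of a condition share a plate is not given. Of 66 pairs of groups, the same-numbered deviations correlated above 0.1 in 1 (lowest -0.0415, highest 0.103). Within a condition the highest were the siIGF2BP3 pairs, at 0.0653 to 0.0891. Such weak correlations cannot exclude a shared plate. With the replicate block the genes called at 0 h were 1, 2 and 1 against siControl and 4, 2 and 2 between knockdowns, as without it, and with a block within each condition 3, 3 and 2 between knockdowns. At 3 h and 6 h the block added ATF4 in siIGF2BP2 at 3 h (0.087) and XBP1 in siIGF2BP1 at 6 h (-0.13). The block within each condition ended the calls of TRIB3 in siIGF2BP3 at 3 h (0.14) and ATF4 in siIGF2BP2 at 6 h (0.090), and added ATF4 in siIGF2BP1 at 6 h (-0.091) and the HSPA5 slope in siIGF2BP3 (-0.16).

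Over all genes, ERCC scaling changed the calls at 0 h from 2093, 1593 and 1234 to 649, 732 and 471, those between knockdowns from 2455, 1879 and 1207 to 1585, 875 and 382, those at 3 h from 2741 and 2230 to 1176 and 898 (siIGF2BP1, siIGF2BP2), and those at 6 h from 2453 and 2428 to 6493 and 6996 (siIGF2BP2, siIGF2BP3), of which 6336 and 6905 were higher against 1084 and 1240 before. At 0 h the calls split into 1239 higher and 854 lower in siIGF2BP1, 874 and 719 in siIGF2BP2, and 647 and 587 in siIGF2BP3, and with ERCC scaling into 253 and 396, 563 and 169, and 388 and 83. Leaving out 1 library lowered the totals at 0 h to 1265 to 1412, 846 to 978 and 586 to 765, those between knockdowns to 1570 to 1641, 1103 to 1205 and 676 to 808, and those at 3 h and 6 h to between 1169 and 2640, so the shares of all genes given as background fall with fewer libraries too. With only the 2 groups compared, 1097 were called at 6 h in siIGF2BP3. TMM and library-size scaling raised the late minus early calls from 3923 (3348 positive) to 6937 (2839 positive) and 6321. Slope differences called 2, 0 and 3 genes, with DESeq2 4, 6 and 27, with no low-count filter 9, 22 and 12, up to 86, 72 and 195 from the 0 to 6 h change alone, and 0 to 540 in siIGF2BP3 without 1 library. Low counts limit DDIT3 after actinomycin D and CHAC1 throughout.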
